A study of Rattus norvegicus with 10 samples.

Results

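Mucins and the goblet cell programme were examined in the nasal transitional epithelium of rats given N,N-dimethyl-p-toluidine (DMPT), an aromatic amine used to speed the setting of acrylic cements. The set was 10 listed genes: the mucins Muc1, Muc4, Muc5ac, Muc5b and Muc16, and Agr2, Spdef, Foxa1, Galnt6 and Gcnt3. Members were all probe sets whose single annotated symbol was one of these. The rule found 9 probe sets, 1 for each of 9 genes, among the 14217 named genes of the array; Muc16 was not measured under its own symbol and is not analysed here. The DMPT group was 5 male F344/N rats gavaged with 120 mg/kg/day in corn oil for 5 days, and the vehicle group was 5 such rats given corn oil alone. All were 5 to 6 weeks old when the study began. The epithelium was cut out by laser capture microdissection, its RNA was amplified, and each animal gave 1 array. The labels state that animals shared cages, without saying which, so arrays were treated as independent. The comparison asks which transcripts of this epithelium differ at the end of dosing. Values are log2 expression values, differences are DMPT minus vehicle, values after a mean are SD, and those after a difference are standard errors.

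Mucins are long proteins densely coated with sugar chains. Gel-forming mucins such as Muc5ac and Muc5b are secreted and make up mucus, whereas Muc1, Muc4 and Muc16 are anchored in the cell membrane at the airway surface. In airway goblet cells the transcription factor Spdef, working alongside forkhead factors such as Foxa1, switches on secretory genes, and the endoplasmic reticulum protein Agr2 helps mucins to fold, roles best described in mice. Their sugars are started by N-acetylgalactosaminyltransferases such as Galnt6 and branched by enzymes such as Gcnt3.

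After DMPT the folding helper Agr2 and the forkhead factor Foxa1 fell and the glycan-initiating enzyme Galnt6 rose. The gel-forming mucin Muc5ac was above every vehicle animal in 4 of 5 DMPT animals but did not pass the test, and the mean of Muc5b was nearly the same in both groups. In the limma fit over all probe sets, 2 of the 9 measured genes were lower and 1 was higher at an adjusted p under 0.05, and 6 did not pass. Among all 14217 genes 6.77% were called lower and 7.13% higher, 13.9% in either direction. The groups did not overlap for 4 of the 9 genes, against 13.9% of all genes. The 9 genes are few and were chosen with earlier results of these data known. Whether these counts set the list apart from the rest was not tested. The median difference was 0.018 over the 9 genes and -0.0052 over all genes.

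**Figure D1:**
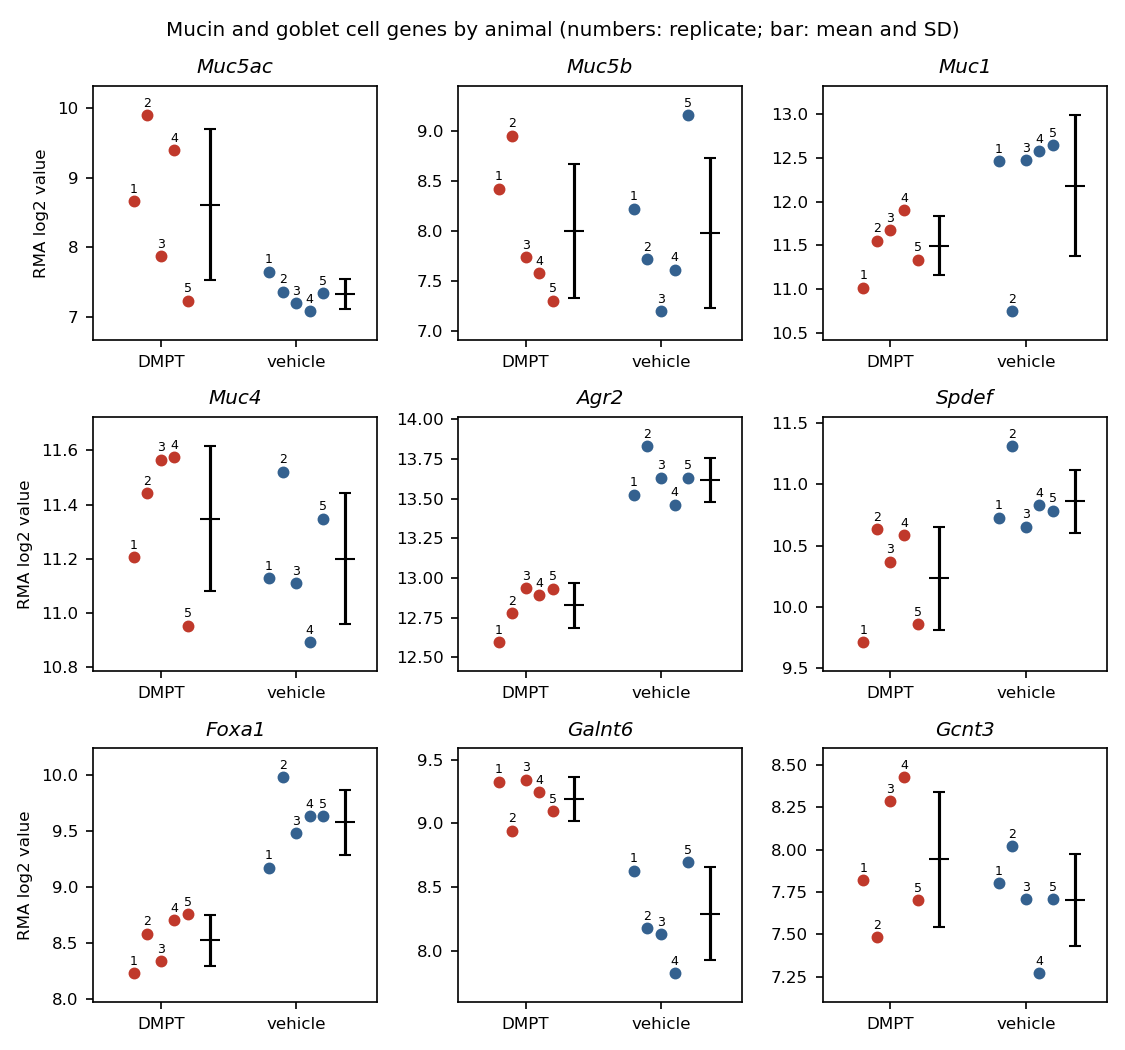
RMA log2 value of each measured gene in each animal, DMPT left of vehicle, with the replicate number above each point and the mean and SD of the 5 animals as a black bar; each panel has its own vertical axis. The groups are apart for Agr2, Foxa1, Galnt6 and, by a narrow margin, Spdef, and Muc1 has 1 vehicle animal far below the other vehicle animals.

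The arrays correlated with each other at r between 0.959 and 0.992, and their medians lay between 8.21 and 8.35. Vehicle replicate 2 stood apart, with a score of 54.4 on the second principal component, which held 18.3% of the variance, while the other arrays scored between -25.8 and 14.9. It correlated with the remaining vehicle arrays at 0.975 on average. A measure of RNA quality, by how much GAPDH and beta-actin control signals at the 3' end exceeded those at the 5' end, ran from 0.87 to 1.30 in DMPT animals and from 1.17 to 1.50 in vehicle animals. None of the 9 genes lay below the lower quartile of any array (6.37 to 6.51). The captured tissue carried transcripts of several cell types: the basal keratin gene Krt5 averaged 13.18 in DMPT and 12.58 in vehicle animals, the ciliated cell factor gene Foxj1 averaged 11.33 and 12.21, and the collagen gene Col1a1 averaged 13.19 and 13.30, in the same order. In such bulk tissue, fewer cells of a type and less RNA per cell cannot be told apart.

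Agr2 encodes a protein disulfide isomerase of the endoplasmic reticulum, needed in mice for intestinal mucin production. Its values were 12.60, 12.78, 12.93, 12.89 and 12.93 in DMPT replicates 1 to 5, against 13.53, 13.83, 13.63, 13.46 and 13.63 in vehicle replicates 1 to 5. Every DMPT animal was below every vehicle animal, with a gap between the groups wider than the range within either. The means were 12.83 ± 0.14 after DMPT and 13.62 ± 0.14 with vehicle (SD, n = 5 each). Agr2 fell by 0.79 ± 0.10, or 1.73-fold, with an adjusted p of 0.000614.

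Foxa1, the forkhead factor that opens chromatin in epithelial cells, had values of 8.24, 8.59, 8.34, 8.70 and 8.76 in DMPT animals and of 9.17, 9.98, 9.48, 9.63 and 9.63 in vehicle animals. Again the groups did not overlap. Foxa1 fell by 1.05 ± 0.15, or 2.07-fold (adjusted p = 0.00135), which was the largest fall among the 9 genes.

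Spdef, the ETS-family factor of goblet cell differentiation, had values of 9.71, 10.63, 10.37, 10.58 and 9.86 in DMPT animals, against 10.73, 11.31, 10.65, 10.83 and 10.79 in vehicle animals. The groups were apart, but the highest DMPT and the lowest vehicle animal nearly touched. The difference of -0.63 ± 0.20 had an adjusted p of 0.0619 and did not pass, with a 95% interval from -1.06 to -0.20. Without DMPT replicate 2 it was -0.73 and passed (adjusted p = 0.0459); without vehicle replicate 2 it was -0.52 (adjusted p = 0.103). With the RNA quality measure as a covariate the difference was -0.32 (adjusted p = 0.288), and the part of RNA quality in it was not tested further.

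Galnt6 encodes an enzyme of the Golgi that attaches the first sugar of mucin-type chains. Its values were 9.33, 8.94, 9.34, 9.25 and 9.10 in DMPT animals and 8.63, 8.18, 8.13, 7.83 and 8.70 in vehicle animals. All DMPT animals lay above all vehicle animals. Galnt6 rose by 0.90 ± 0.16, or 1.86-fold (adjusted p = 0.00527). Gcnt3, which makes the branched core structures of mucin sugars, had values of 7.82, 7.48, 8.29, 8.43 and 7.70 in DMPT animals and of 7.80, 8.02, 7.71, 7.27 and 7.71 in vehicle animals. These overlapped widely, and the difference was 0.24 ± 0.19 (adjusted p = 0.496, 95% interval from -0.18 to 0.66).

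Promoters of the genes with separate groups are shown where a window was available, which leaves out Foxa1, and that of Muc1 is added. The stretch near the start site is where motifs of regulators could be looked for. RefSeq's table (build GRCr8) held a window of 250 bases before to 50 after the start for 6 of the 9 genes: Muc1, Muc4, Agr2, Spdef, Galnt6 and Gcnt3. Both strands were searched for the antioxidant response element core TGACNNNGC, the AP-1 motif TGANTCA, the aryl hydrocarbon receptor core GCGTG, the forkhead motif TGTTTNC and the Spdef-type ETS motif CCGGAT. Capitals mark every match, the windows run 5′ to 3′ along the gene, and no matches overlapped. They lie at chr6:58435658-58435957 on the plus strand for Agr2, chr20:5787636-5787935 on the minus strand for Spdef, chr7:133694235-133694534 on the minus strand for Galnt6 and chr2:176933500-176933799 on the plus strand for Muc1.
Agr2: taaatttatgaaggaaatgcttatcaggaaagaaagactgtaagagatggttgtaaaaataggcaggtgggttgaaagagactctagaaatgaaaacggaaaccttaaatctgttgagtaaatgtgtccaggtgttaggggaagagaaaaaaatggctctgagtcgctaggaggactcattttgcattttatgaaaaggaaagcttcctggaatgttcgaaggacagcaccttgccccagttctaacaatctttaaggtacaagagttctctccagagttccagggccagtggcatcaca
Spdef: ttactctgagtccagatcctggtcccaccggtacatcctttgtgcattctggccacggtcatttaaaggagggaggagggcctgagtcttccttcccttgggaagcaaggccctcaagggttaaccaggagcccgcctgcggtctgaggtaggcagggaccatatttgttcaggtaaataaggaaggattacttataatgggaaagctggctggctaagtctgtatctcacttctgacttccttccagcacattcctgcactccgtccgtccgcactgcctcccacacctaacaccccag
Galnt6: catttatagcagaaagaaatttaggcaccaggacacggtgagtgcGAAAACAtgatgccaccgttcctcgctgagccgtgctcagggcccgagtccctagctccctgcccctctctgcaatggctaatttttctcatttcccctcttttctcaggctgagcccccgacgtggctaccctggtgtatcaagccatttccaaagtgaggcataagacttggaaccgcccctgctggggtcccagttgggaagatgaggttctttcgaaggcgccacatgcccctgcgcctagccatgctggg
Muc1: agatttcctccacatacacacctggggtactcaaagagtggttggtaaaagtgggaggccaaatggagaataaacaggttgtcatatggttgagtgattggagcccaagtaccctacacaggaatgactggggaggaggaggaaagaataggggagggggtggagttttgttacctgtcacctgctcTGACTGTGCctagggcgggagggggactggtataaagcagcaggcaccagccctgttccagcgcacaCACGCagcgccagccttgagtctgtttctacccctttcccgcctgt

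The Agr2 and Spdef windows held 0 matches to the 5 motifs. Galnt6 held 1 forkhead match, on the opposite strand, beginning at base -205 from the start site; 21.1% of all 33465 promoter windows held that motif. Muc1 held 1 antioxidant response element core at base -63, as did 12.1% of all windows, and 1 aryl hydrocarbon receptor core at base 5, as did 29.7%. Of the windows not shown, Gcnt3 held 1 antioxidant response element core at base -17 and Muc4 held 1 aryl hydrocarbon receptor core at base -62. The AP-1 and ETS motifs, in 7.33% and 6.64% of all windows, had 0 matches in the 6 windows. A match describes letters in the window and says nothing of binding.

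Muc5ac, the gel-forming mucin of surface goblet cells, was the member with the widest spread after DMPT. Its values were 8.66, 9.90, 7.87, 9.40 and 7.23 in DMPT animals, against 7.65, 7.36, 7.19, 7.08 and 7.34 in vehicle animals. The vehicle animals lay close together, DMPT replicates 2 and 4 were high, and DMPT replicate 5 lay within the vehicle range. The means were 8.61 ± 1.09 after DMPT and 7.32 ± 0.21 with vehicle (SD, n = 5 each). The difference of 1.29 ± 0.42, or 2.44-fold, did not pass (unadjusted p = 0.00961, adjusted p = 0.0711), although its own 95% interval ran from 0.38 to 2.20. Without DMPT replicate 5 it was 1.63 and passed (adjusted p = 0.0149); leaving out each of the other 9 arrays gave adjusted p-values from 0.0671 to 0.157.

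Muc5b, the gel-forming mucin that in airways also comes from submucosal glands, had values of 8.43, 8.95, 7.74, 7.59 and 7.31 in DMPT animals, against 8.23, 7.72, 7.20, 7.62 and 9.16 in vehicle animals. Both groups spanned a similar range, and the highest and the lowest of the 10 animals were both vehicle animals. The difference was 0.018 ± 0.38 (adjusted p = 0.985), and its 95% interval from -0.81 to 0.85 leaves room for a change of either sign. Its sign depended on the array left out: it was -0.22 when DMPT replicate 2 was omitted and 0.31 when vehicle replicate 5 was.

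Bpifa1, which encodes a secreted defence protein of nasal and glandular epithelium, followed much of this animal-to-animal pattern. Its values were 12.30, 12.92, 9.79, 10.43 and 9.99 in DMPT animals and 12.90, 11.49, 10.32, 11.74 and 13.44 in vehicle animals. For both genes DMPT replicates 2 and 1 were the highest DMPT animals and vehicle replicates 5 and 1 the highest vehicle animals. Among 7104 genes above the median level, those with the highest correlation to Muc5b over the 10 arrays, after each group's mean was subtracted, were the vesicle coat gene Copb2 (r = 0.939), the histone methylation gene Dpy30 (r = 0.935) and Bpifa1 (r = 0.933). For Muc5ac they were the RNA-processing genes Zranb2 (r = 0.914) and Prpf6 (r = 0.886) and Zfp622 (r = 0.879). For Agr2 they were Rrs1-ps9 (r = 0.971), the transcriptional corepressor gene Sin3a (r = 0.969) and the xanthine dehydrogenase gene Xdh (r = 0.944). Coefficients picked as the highest of so many are high by that choice and describe these arrays only; the genes share the array of each animal.

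Muc1, the membrane mucin of most secretory surfaces, had values of 11.01, 11.55, 11.68, 11.90 and 11.33 in DMPT animals, against 12.46, 10.75, 12.48, 12.58 and 12.65 in vehicle animals. Vehicle replicate 2 was the lowest of all 10 animals, and the other 4 vehicle animals were above every DMPT animal. The difference was -0.69 ± 0.33 and did not pass (adjusted p = 0.229, 95% interval from -1.41 to 0.038). Without vehicle replicate 2, the array that stood apart on the second principal component, it was -1.05 and passed (adjusted p = 0.00215). Leaving out any other array gave adjusted p-values from 0.225 to 0.394.

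Muc4, a membrane mucin that binds the receptor ErbB2, had values of 11.21, 11.44, 11.57, 11.58 and 10.95 in DMPT animals and of 11.13, 11.52, 11.11, 10.89 and 11.35 in vehicle animals. The groups overlapped throughout. The difference of 0.15 ± 0.15 did not pass (adjusted p = 0.610), and its 95% interval ran from -0.18 to 0.48.

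**Figure D2:**
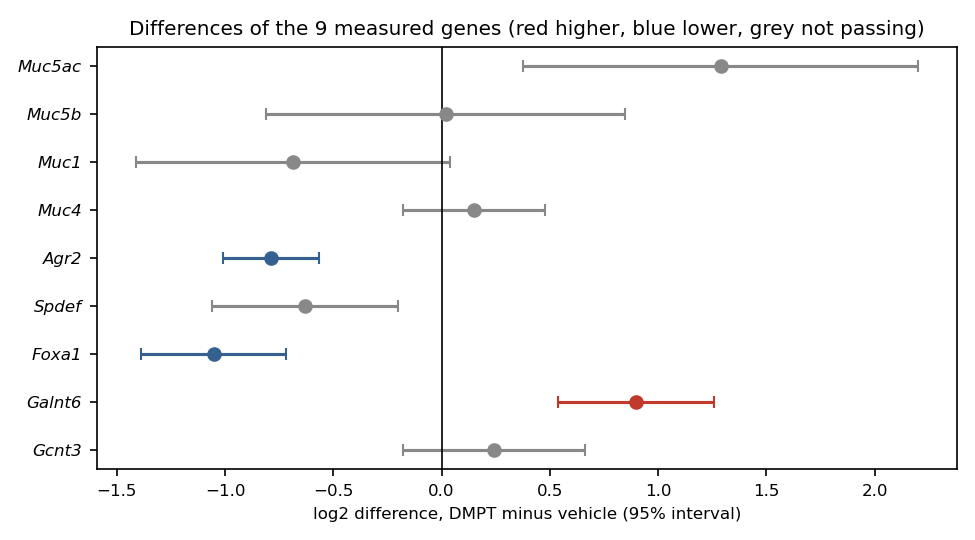
Log2 difference, DMPT minus vehicle, of each measured gene with its 95% interval from the limma fit; red is called higher, blue lower and grey did not pass. Agr2 and Foxa1 lie below 0 and Galnt6 above it, and the intervals of Muc5ac and Muc5b are the widest.

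The genes did not share 1 order of animals. Among DMPT animals replicate 1 had the lowest value of Agr2, Spdef, Foxa1 and Muc1, while replicate 5 had the lowest value of Muc5ac, Muc5b and Muc4. Among vehicle animals replicate 2 had the highest value of Agr2, Spdef, Foxa1, Muc4 and Gcnt3 and the lowest of Muc1. Muc5ac was highest in DMPT replicate 2, in which Agr2 was the second lowest of the DMPT animals.

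Other factors and products linked to mucous cells, not all particular to such cells, were taken from a list of 30 genes. Of these 24 were measured, 2 higher and 2 lower, beside 7.13% higher and 6.77% lower among all 14217 genes. Tff3, a trefoil peptide secreted with mucins, had values of 7.44, 8.61, 8.09, 8.91 and 8.77 in DMPT animals and of 10.11, 10.96, 10.43, 10.41 and 10.91 in vehicle animals. Creb3l4, a transcription factor anchored in the endoplasmic reticulum, had values of 9.00, 9.64, 9.65, 9.92 and 9.34 in DMPT animals, against 10.59, 10.73, 10.40, 10.63 and 10.73 in vehicle animals. Both sets of values were apart, and Tff3 fell by 2.20 ± 0.27 (adjusted p = 0.000472) and Creb3l4 by 1.10 ± 0.16 (adjusted p = 0.00113). Its relative Creb3l1 differed by -0.58 ± 0.19 (adjusted p = 0.0750), and passed without DMPT replicate 2 (-0.72, adjusted p = 0.0233). Creb3l1 did not pass in any other omission of an array, with adjusted p-values up to 0.173.

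The epithelial zinc finger factor gene Klf4, which takes part in goblet cell maturation in mouse colon, rose by 1.04 ± 0.13 (adjusted p = 0.000459). Clca2, of a family named for calcium-activated chloride channels, rose by 0.81 ± 0.18 (adjusted p = 0.0128), a call lost with the RNA quality covariate (0.73, adjusted p = 0.0630). Its relative Clca1 was below the lower quartile in 4 DMPT and 5 vehicle animals. The probe sets of Clca1 differed by 1.18 and 0.98 and did not pass (adjusted p = 0.150 and 0.161). Xbp1, the factor that expands the secretory apparatus, differed by -0.10 ± 0.096 and the mucus gel protein gene Fcgbp by -0.025 ± 0.15; neither passed. The forkhead genes Foxa2 and Foxa3 were below the lower quartile on all 10 arrays, so little can be read from their differences of -0.15 and -0.045. Ern2 was not measured. The median difference of the list was -0.043.

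**Figure D3:**
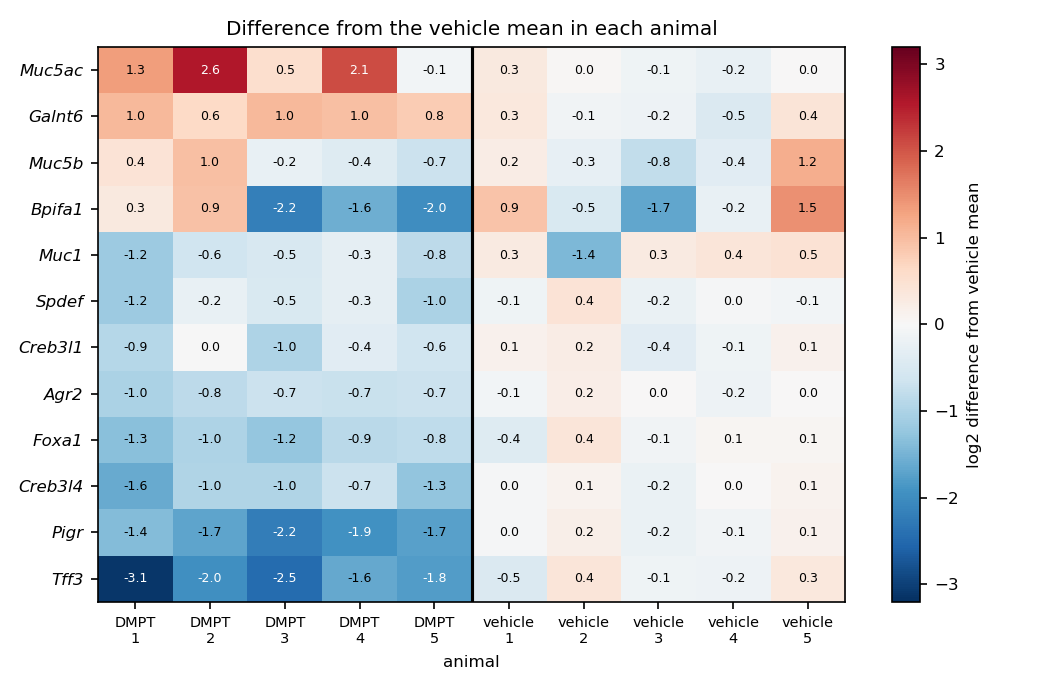
Difference of each animal from the vehicle mean, in log2 units, for 12 genes (rows) in DMPT and vehicle animals (columns); red is above and blue below the vehicle mean. Muc1, Spdef, Creb3l1, Agr2, Foxa1, Creb3l4, Pigr and Tff3 are below the vehicle mean in 5 of 5 DMPT animals. Creb3l1 in DMPT replicate 2, at -0.004, is very close to that mean. Galnt6 is above the vehicle mean in 5 of 5 DMPT animals, while Muc5b and Bpifa1 vary within both groups.

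Of 19 other mucins and mucin-like surface proteins listed, 7 were measured. Muc13, a membrane mucin of the gut and airway, fell by 0.78 ± 0.16 (adjusted p = 0.0108), with values of 9.32, 8.60, 8.86, 8.84 and 9.09 in DMPT animals and of 9.25, 9.87, 9.75, 9.71 and 10.04 in vehicle animals. Vehicle replicate 1 lay within the DMPT range, and the other vehicle animals lay above it. The gel-forming Muc2 differed by -0.17 ± 0.085 (adjusted p = 0.236). Surface glycoprotein genes of blood vessels made up the rises: the sialomucin genes Emcn rose by 1.72 ± 0.44 (adjusted p = 0.0281), Podxl by 0.93 ± 0.23 (adjusted p = 0.0225) and the adhesion molecule gene Mcam by 1.05 ± 0.31 (adjusted p = 0.0487). Those calls were lost in 5, 3 and 8 of the 10 omissions of an array, with adjusted p-values up to 0.0728, 0.0607 and 0.116, and 0 of the 3 was called with the RNA quality covariate or without DMPT replicate 3, DMPT replicate 4 or vehicle replicate 4. Other probe sets did not pass, 2 of Podxl (0.45 and 0.49, adjusted p = 0.104 and 0.151) and 1 of Mcam (0.57, adjusted p = 0.0565).

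Of 18 other enzymes of the Galnt type listed, 12 were measured, with 1 higher and 1 lower and a median of -0.042. For all 14217 genes the shares were 7.13% higher and 6.77% lower. Galnt7, which adds further first sugars to proteins that already carry some, rose by 0.79 ± 0.13 (adjusted p = 0.00249), with values of 10.05, 9.65, 10.10, 10.01 and 9.61 in DMPT animals and of 8.83, 9.03, 9.17, 9.24 and 9.20 in vehicle animals. The groups did not overlap. Galnt18 fell by 0.71 ± 0.15 (adjusted p = 0.0129). Galnt1 differed by -0.33 ± 0.12 (adjusted p = 0.117); of its other 3 probe sets, 1 was lower (-0.35, adjusted p = 0.0389).

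Enzymes and carriers that extend, sulfate, sialylate or fucosylate the chains included 5 higher and 7 lower genes among 32 measured. The shares of all 14217 genes were 7.13% higher and 6.77% lower. C1galt1, which makes the core 1 structure on which most mucin chains are built, had values of 10.21, 10.54, 10.41, 10.36 and 10.69 in DMPT animals and of 11.12, 10.86, 11.32, 11.28 and 11.12 in vehicle animals. It fell by 0.70 ± 0.12 (adjusted p = 0.00322), and its other 2 probe sets fell by 0.79 and 0.70. Gcnt1, the core 2 branching enzyme, was not measured. Among sialyltransferase genes that act on O-glycans and gangliosides, St6galnac6 fell by 0.97 ± 0.13 (adjusted p = 0.000865), St6galnac2 by 0.53 ± 0.079 and St6galnac4 by 0.47 ± 0.11. St6galnac4 did not pass with the RNA quality covariate (adjusted p = 0.0975) or without DMPT replicate 3 (adjusted p = 0.0524) or DMPT replicate 5 (adjusted p = 0.0530). St3gal1 (0.27, adjusted p = 0.268) and St3gal4 (-0.0098, adjusted p = 0.976) did not pass in the main fit. A second probe set of St6galnac2 differed by -0.44 (adjusted p = 0.0684), and the other 2 of St6galnac4 by -0.15 and 0.0046 (adjusted p = 0.641 and 0.984), none of which passed. St3gal6, which sialylates galactose ends, rose by 0.55 ± 0.12.

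The fucosyltransferase gene Fut2, which sets the secreted blood group sugars, had values of 10.26, 10.16, 10.68, 10.51 and 9.97 in DMPT animals and of 8.67, 9.17, 8.97, 9.10 and 9.34 in vehicle animals. These groups were apart, and Fut2 rose by 1.26 ± 0.16 (adjusted p = 0.000486). Its 3 probe sets rose by between 1.22 and 1.33. Fut1, the related H-antigen enzyme, rose by 1.81 ± 0.37, but 4 of 5 vehicle animals were below the lower quartile, so the size is uncertain. Papss2, which makes the sulfate donor, rose by 1.47 ± 0.14 (adjusted p = 0.000104). The remaining called genes were B4galt5, higher, and B4galt4, St3gal2 and Slc35a2, lower. Their calls were lost in 6, 7, 7 and 3 of the 10 omissions of an array and with the RNA quality covariate. A second probe set of B4galt5 passed (0.51, adjusted p = 0.0206), and a second one of St3gal2 did not (-0.53, adjusted p = 0.161). The number of lower genes on the list was 3 without DMPT replicate 3 and 4 with that covariate.

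**Figure D4:**
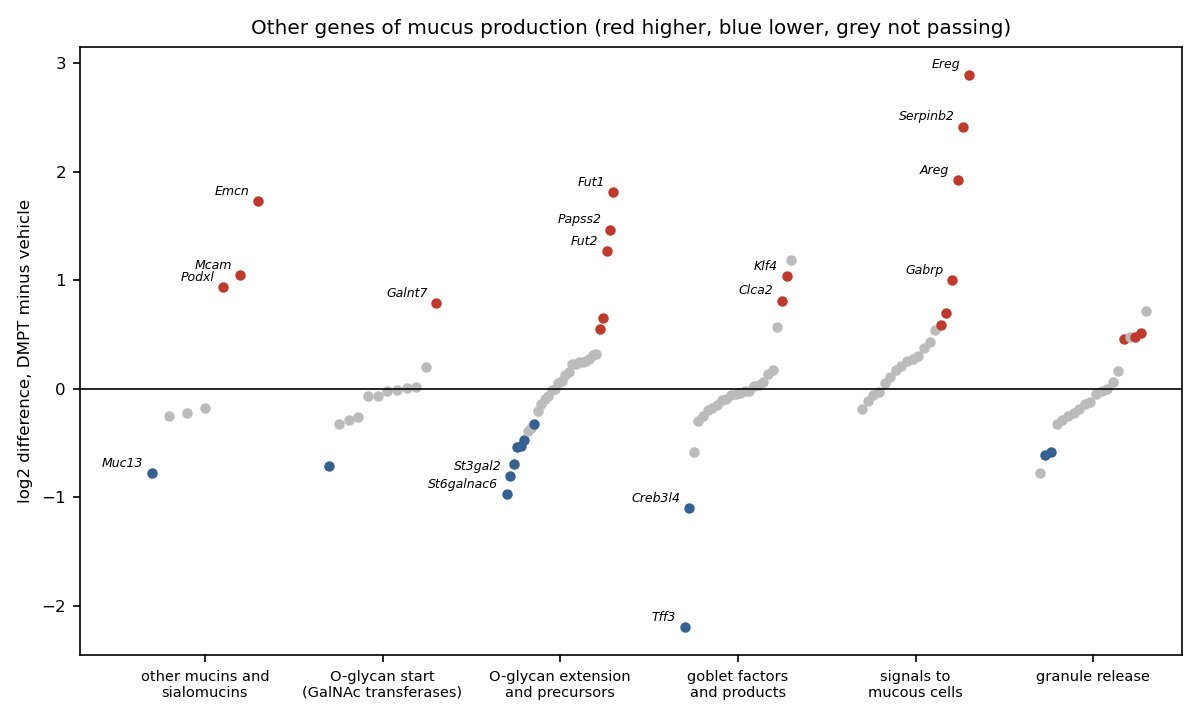
Log2 difference, DMPT minus vehicle, of every measured gene in 6 lists around mucus production, ordered by size within each list; red is called higher, blue lower and grey did not pass, and called genes beyond 0.75 are named. Ereg is the highest and Tff3 the lowest point, and Ereg was dim in 3 of 5 vehicle animals.

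A list of signals known to act on mucous cells also held receptors and other genes that are not signals themselves. Of its 23 genes 20 were measured, with a median of 0.29. By limma 6 were higher and 0 lower, where 7.13% of all 14217 genes were higher and 6.77% lower. At an unadjusted p under 0.05 the counts were 9 higher and 0 lower, where 13.7% of all 14217 genes were higher and 14.5% lower. Without the dimmest quartile of probe sets 3 genes of the list were called higher. Genes whose probe set was left out were not tested in that setting and could not be called. The epidermal growth factor receptor ligand gene Ereg had values of 9.12, 9.70, 9.61, 9.69 and 8.30 in DMPT animals and of 6.16, 5.98, 6.72, 6.31 and 6.80 in vehicle animals, and rose by 2.89 ± 0.27 (adjusted p = 7.13e-05). In 3 of 5 vehicle animals Ereg was below the lower quartile, so the size of its rise is uncertain. The ligand gene Areg rose by 1.92 ± 0.23 and Hbegf by 0.69 ± 0.16, but Areg was below the lower quartile in all vehicle animals and Hbegf in all animals, so their sizes are uncertain. The Hbegf call was lost without DMPT replicate 3 (adjusted p = 0.0510) and with the RNA quality covariate (adjusted p = 0.0506). Gabrp, a GABA receptor subunit gene of airway epithelium, rose by 1.00 ± 0.12. Serpinb2 was also called, at a level near background, and Tnf, whose call was lost in 8 of the 10 omissions and with that covariate and whose second probe set did not pass (adjusted p = 0.535). Egfr, the receptor itself, differed by 0.11 ± 0.11 (adjusted p = 0.613), and Il13 was below the lower quartile on all 10 arrays.

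Of 20 measured genes of granule transport and release, 3 were higher and 2 lower, with a median of -0.087. Over all 14217 genes 7.13% were higher and 6.77% lower. The small GTPase gene Rab3d, of secretory granules, rose by 0.46 ± 0.096 and the membrane fusion gene Snap23 by 0.51 ± 0.11, while Rab3b fell by 0.61 ± 0.096 and the vesicle protein gene Vamp2 by 0.59 ± 0.10. A second probe set of Vamp2 differed by -0.24 and did not pass. The Snap23 call was lost with the RNA quality covariate (0.40, adjusted p = 0.0516). Marcksl1 was the third higher gene, at 0.47 ± 0.12, and its call was lost in 4 of the 10 omissions and with the covariate.

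Marker lists of other cell types moved beside these genes, and their part in the results above was not tested. Their counts stand beside 7.13% called higher and 6.77% called lower among all 14217 genes. Of 20 nasal gland and serous genes listed, 16 were measured. By limma 5 were lower and 0 higher (6 and 1 at an unadjusted p under 0.05). The lower genes were Pigr, Azgp1, Aqp5, Lyz2 and Mup5. Of the 16 differences 12 were below 0 and 4 above it, and the largest rise was 2.32. Mup5 was below the lower quartile in 4 DMPT animals and 1 vehicle animal. Of its other probe sets, 1 passed (-2.81, adjusted p = 0.0287) and 1 did not (-1.32, adjusted p = 0.0876). Pigr, which carries antibodies across the epithelium, fell by 1.79 ± 0.15. The mean level of the list ran from 7.69 to 8.71 in DMPT animals and from 8.20 to 9.14 in vehicle animals. The number of lower genes was 2 without DMPT replicate 5. It was 3 without DMPT replicates 1, 3 or 4 or vehicle replicates 1, 4 or 5. The number of higher genes was 1 with a replicate block and without DMPT replicates 3 or 5. Scgb1a1, the club cell marker, was below the lower quartile in 5 DMPT and 4 vehicle animals. Of 12 measured olfactory sustentacular and Bowman gland genes, 1 was higher and 5 lower, with levels from 9.16 to 9.80 in DMPT and from 9.76 to 10.18 in vehicle animals; the lower count was 3 without DMPT replicates 3 or 4 or vehicle replicates 1, 2 or 5. Of 11 olfactory neuron genes Adcy3 was higher, a call lost in 9 of the 10 omissions of an array, and Gap43 lower (levels from 6.89 to 7.85 in DMPT and from 7.00 to 7.37 in vehicle animals).

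Multiciliated cell markers were lower in 10 of 11 genes, with a list level from 8.69 to 10.34 in DMPT and from 10.33 to 11.66 in vehicle animals; the count was 4 without DMPT replicates 3, 4 or 5 or vehicle replicate 5, and 5 without vehicle replicates 2 or 4. Basal and squamous markers were higher in 6 of 17 genes and lower in 0 by limma (8 and 2 at an unadjusted p under 0.05), with levels from 9.41 to 9.90 in DMPT and from 8.66 to 8.79 in vehicle animals. Genes of dividing cells were higher in 10 of 10, with levels from 10.23 to 10.48 and from 8.86 to 9.69. Endothelial markers were higher in 8 of 11, with levels from 7.25 to 8.49 in DMPT and from 6.17 to 7.41 in vehicle animals, in 4 without DMPT replicates 1 or 3 or vehicle replicate 4, and in 5 without DMPT replicate 4 or vehicle replicate 5. Leukocyte markers were higher in 4 of 16 genes and lower in 1 (levels from 7.80 to 8.05 and from 7.68 to 7.88), and of 12 stromal genes 0 passed by limma in either direction, with 2 higher and 0 lower at an unadjusted p under 0.05, against 13.7% and 14.5% of all genes (levels from 9.09 to 9.92 and from 8.90 to 9.83). The RNA quality measure ran from 0.87 to 1.30 in DMPT and from 1.17 to 1.50 in vehicle animals. These ranges overlapped and were not compared by a test. With that measure as a covariate, the lower counts were 3 for multiciliated, 2 for gland, 3 for sustentacular and 0 for olfactory neuron genes. The higher counts were then 3 for endothelial and 0 for olfactory neuron genes.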

How the data were processed

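Each of the 10 arrays (Affymetrix Rat230_2) held amplified, biotin-labelled RNA of captured nasal transitional epithelium from 1 rat. The deposited log2 values were made by the authors with RMA, per the submitters' processing notes, without a version. RMA makes the arrays' distributions alike, and the number of arrays limits the precision. Of 31099 probe sets, 57 controls were left out and 31042 tested with linear models and moderated variances in limma 3.58.1 under R 4.3.3 (group as the only term), with Benjamini-Hochberg adjustment over all of them and a threshold of 0.05. In the platform annotation 20826 tested probe sets had 1 symbol, 436 several and 9780 none; only the first were named. Where a gene had several, its brightest one on average over all arrays stood for it. Dim means below the lower quartile of an array.

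The members and gene lists were chosen with earlier results of these data known. The genes picked for naming were all members and the 3 genes of smallest p in each pathway list (2 in each marker list). Most of those picked from the marker lists are not named above. A fixed panel was added (Tff3, Creb3l1, Foxa2, Foxa3, Xbp1, Ern2, Fcgbp, C1galt1, Gcnt1, Bpifa1, Scgb1a1, Foxj1 and Krt5). For Muc5b, Muc5ac and Agr2 the 3 genes of most similar pattern were also named. Any other gene named from a list was chosen after its values were seen. Alternatives were a replicate block, leaving out the dimmest quartile of probe sets, median centring, a trended robust prior, array weights, an RNA quality covariate, leaving out each array, and averaging the probe sets of a gene; their use on the marker lists was chosen after seeing the data. The fit was tested on simulated data.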

Additional observations from a re-analysis of the deposited data

Results flagged for a closer look

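In 2 of the 18 sets of 5 values tested (9 genes in DMPT and in vehicle animals), 1 animal lay far from the other 4 by Dixon's test, which chance passes in about 1 of 20 sets. Both were vehicle replicate 2. Its Muc1 value was 10.7, while the other vehicle animals lay between 12.46 and 12.65. Its Spdef value was 11.3, while the other vehicle animals lay between 10.65 and 10.83.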

How the results depend on the processing

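Agr2, Foxa1 and Galnt6 kept their direction and their call in all 16 refits, with array omissions giving -0.83 to -0.73, -1.15 to -0.95 and 0.78 to 1.00. The number of members called higher was between 1 and 2 over the omissions, 2 without DMPT replicate 5, and the number called lower was between 2 and 3. Spdef also passed with a trended robust prior (adjusted p = 0.0499), and Muc1 with array weights (-0.90, adjusted p = 0.0119). Whether replicate numbers pair the animals could not be told from 5 pairs. Deviations of arrays with the same number correlated at -0.067 to 0.23, over 0.1 in 2 of 5 pairs. For 2 DMPT arrays the correlation was highest with the vehicle array of their own number. With the replicate block 923 genes were higher and 987 lower, 3 members were lower, and Spdef (adjusted p = 0.0273) and Creb3l1 (adjusted p = 0.0371) passed. Among all genes, 1013 higher and 962 lower, the RNA quality covariate left 846 higher and 456 lower, and 688 and 542 were called without DMPT replicate 3. Lower genes numbered 608 without DMPT replicate 4 and 622 without DMPT replicate 5. In the settings where Muc1 passed, the totals were larger. They were 1307 higher and 963 lower without vehicle replicate 2, and 1403 and 1099 with array weights. The sign of Muc5b varied over the omissions (-0.22 to 0.31), as did those of Foxa3 (-0.12 to 0.026), Fcgbp (-0.12 to 0.076) and Scgb1a1 (-0.063 to 0.31); with array weights Foxa3 was 0.047 and Fcgbp 0.059, with the covariate 0.058 and 0.13, and with median centring Fcgbp was 0.014. The cause was not tested. For the 69 other genes refitted, 986 of 1098 values kept direction and side of the threshold, 93 lost and 6 gained the call, and 13 changed sign.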
